A study of Danio rerio with 6 samples.

Results

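Transcripts of 30 cell junction genes were measured in kdrl reporter-positive cells from zebrafish trunks, sorted by whether an NF-kB reporter was on. They were the rows of the deposited expression table whose names mark connexins, claudins, cadherins, protocadherins, catenins, junctional immunoglobulin receptors, or plaque and scaffold proteins, 30 of 2471 genes analysed. The first group was NFKB+ cells and the second NFKB- cells, each kdrl-positive, from 22 hours post fertilization (hpf) embryos of NFKB:d2eGFP fish crossed to kdrl:mCherry fish. Both sorts came from this cross, and the labels name no altered NF-kB gene. The kdrl:mCherry reporter expresses mCherry under the promoter of the VEGF receptor gene kdrl, and NFKB:d2eGFP makes a short-lived green fluorescent protein. Each sort had 3 libraries of about 7000 cells, named here NFKB+ libraries 1 to 3 and NFKB- libraries 4 to 6 after the table's columns. The labels call them biological replicates. The labels do not say how embryos were divided among them, so p-values measure the spread between these libraries, which may be technical.

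Cells of a tissue hold together through several kinds of contact. Connexins of neighbouring cells dock into gap junction channels that pass ions and small molecules. Claudins form the sealing strands of tight junctions and are tied to actin by zonula occludens scaffolds. Cadherins bind like to like across the gap and hang on actin through catenins, while desmosomes use plakophilins and plakins to reach keratin filaments. Protocadherins are a large cadherin family, best known in mammals for the surface identity of neurons. VE-cadherin, the product of cdh5, is the main adherens junction cadherin of endothelium.

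The table had already been limited by the authors to genes that differed at least 2-fold with adjusted p at most 0.01 in these same libraries. All 30 junction genes therefore differ by selection, and neither their count past a threshold nor their p-values are independent evidence of a difference. By symbol or synonym, 217 genes of the RefSeq annotation (assembly GRCz12tu) match the names, and 29 of the 30 were found there by gene ID. The other annotated genes were not analysed here. Reads recovered from the deposited values count only the table's genes, so they understate sequencing depth, and they ranged from 8393821 to 15165090 in NFKB+ and from 11129939 to 14020673 in NFKB- libraries. Globins took 7.34% ± 0.588 of these reads in NFKB+ and 39.1% ± 2.90 in NFKB- libraries (SD, n = 3). The gate's own gene kdrl was 2.30-fold higher in NFKB+ cells. Of 46 listed endothelial markers 26 were analysed, and 25 of these were higher in NFKB+, beside 54.5% of all genes. They were led by flt4 (6.40-fold) and aplnra (6.13-fold), and 3 of them (cdh5, pecam1 and esama) are junction genes. The exception, tal1, at a log2 difference of -1.32, is also on the erythroid list. All 23 erythroid markers (hbae1 and nt5c2l1 furthest, at log2 differences of -2.98 and -2.97) were lower, beside 45.5% of all genes. So were all 21 myeloid markers (lyz and mmp13a furthest, at -4.67 and -4.41). Both muscle markers analysed, mef2ca and mef2d, were higher, by 1.12 and 1.01 on the log2 scale. No analysed marker was at 0 in any library, so transcripts of blood cells were present in both sorts. In such bulk samples fewer cells of a type and less RNA per cell cannot be told apart.

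Most of the junction genes were higher in NFKB+ cells. Of the 30, 27 (90.0%) were higher and 3 were lower, while 54.5% of all analysed genes were called higher and 45.5% lower (limma, Benjamini-Hochberg adjusted p of 0.05). The 3 on the lower side were the connexin gene cx32.2 and the claudin genes cldng and cldnk. All analysed cadherins, protocadherins, catenins, immunoglobulin receptors and the desmosomal gene were on the higher side, and both directions occurred among connexins and claudins. The analysed genes were 2 cadherins (28 annotated), 13 protocadherins (64), 2 catenins (10), 3 receptors (10) and 1 plaque gene (12). With 4 connexins (37) and 5 tight junction genes (56), they do not give the direction of a whole family. Differences of 4-fold or more were seen for 12 higher and 3 lower junction genes, against 9.43% and 14.8% of all genes. Genes from protocadherin clusters made up 8 of these 12. By the fold changes that the authors deposited, gja3, pcdh1a3, pcdh1a6, pcdh1gb9, pcdh2ab10 and the lower gene cldnk were under 4-fold. The median log2 difference was 1.75 over the 30 genes and 1.08 over the whole table. Of the 30, 12 come from protocadherin clusters and may share reads, and without them 15 genes were higher and 3 lower. The sorts did not overlap for any of the 30, as for 99.6% of all genes. Scaling the libraries by median ratios over the table lowered every NFKB+ minus NFKB- difference, which moved the 30 folds by 1.72 to 1.84 times and ended 5 calls, named beside the genes they concern.

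**Figure D1:**
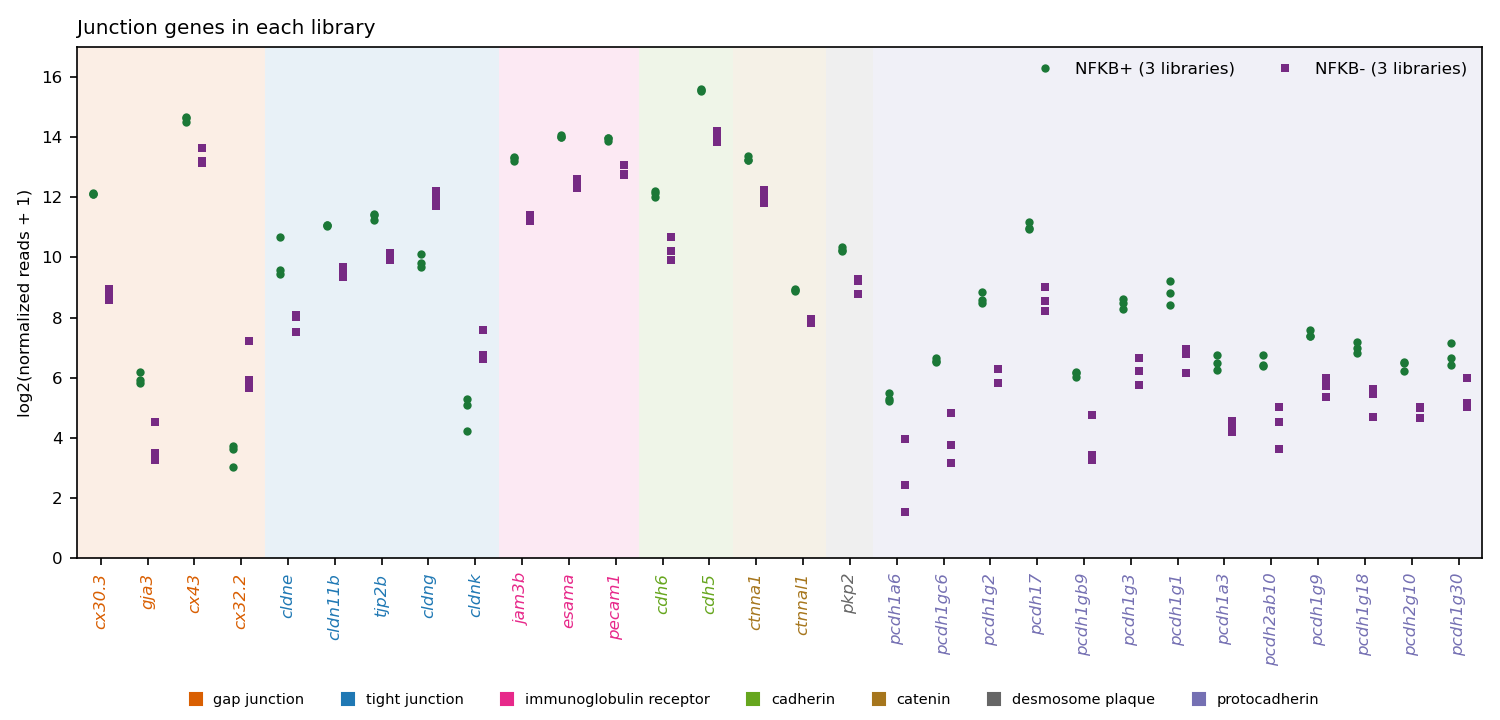
Level of each of the 30 junction genes, as log2(normalized reads + 1), in the 3 NFKB+ libraries (circles) and the 3 NFKB- libraries (squares), with the shading and the colour of the gene name giving the junction type. The circles lie above the squares for 27 genes and below them for cx32.2, cldng and cldnk, with no overlap.

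Gap junction genes held both the largest excess and the largest deficit among the 30. The beta connexin gene cx30.3 (NCBI Gene 404725, gjb8 in RefSeq) had log2 levels of 12.13, 12.11 and 12.11 in NFKB+ libraries, against 8.94, 8.67 and 8.59 in NFKB- libraries. The NFKB+ libraries were nearly alike and lay 3.17 above the highest NFKB- value. Its log2 difference, NFKB+ minus NFKB-, was 3.39 ± 0.13 (SE), a 10.4-fold ratio of geometric means (limma adjusted p = 2.71e-11). It stood 13th among the 1347 higher genes.

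The alpha connexin gene gja3 (Gene 387533), a lens connexin in mammals, lies next to cx30.3 in the RefSeq gene order with no annotated gene between them. It was covered by few reads, 58, 60 and 87 in NFKB+ libraries and 9, 9 and 20 in NFKB- libraries. Its log2 levels were 5.94, 6.19 and 5.83 in NFKB+ and 3.48, 3.27 and 4.51 in NFKB- libraries, with NFKB- library 6 nearest to the NFKB+ values. The log2 difference was 2.23 ± 0.49 (SE; limma adjusted p = 4.17e-04). Both neighbours were thus higher in NFKB+ cells. The log2 ratio of cx30.3 to gja3 was 6.13 ± 0.18 in NFKB+ and 4.98 ± 0.78 in NFKB- libraries (SD, n = 3), without overlap. An exact two-sided permutation test gave p = 0.1, the smallest that 3 against 3 libraries allow.

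A second pair of adjacent connexin genes went opposite ways. In RefSeq order cx43 (Gene 30236, gja1b), the relative of mammalian connexin 43 and the gene of the short fin mutant in zebrafish, is next to cx32.2 (Gene 566647, gja13.2), again with no annotated gene between. For cx43 the log2 levels were 14.65, 14.67 and 14.50 in NFKB+ libraries, against 13.64, 13.20 and 13.14 in NFKB- libraries. Its difference was 1.28 ± 0.13 (SE), or 2.43-fold (limma adjusted p = 1.48e-07). The gap between the sorts, 0.86, was narrower than for the other connexin genes.

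For cx32.2 there were 11, 6 and 19 reads in NFKB+ libraries and 53, 52 and 137 in the NFKB- sort. Its log2 levels were 3.63, 3.03 and 3.72 in NFKB+, against 5.93, 5.67 and 7.23 in NFKB- libraries. Library 6 was well above the other NFKB- libraries, yet even the lowest NFKB- value exceeded each NFKB+ value. The log2 difference was -2.81 ± 0.52 (SE; limma adjusted p = 9.44e-05), a 7.02-fold deficit in the NFKB+ sort. The log2 fold change that the authors' deposited table gives for cx32.2 is -2.55.

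Because both connexins of the pair are read in the same library, their ratio depends on library scaling only through the pseudocount of 1. That part is not negligible at the few reads of cx32.2. Transcript length cancels between sorts in the same way. The log2 ratio of cx43 to cx32.2 was 11.01, 11.63 and 10.78 in NFKB+ libraries, against 7.71, 7.53 and 5.91 in NFKB- libraries. The mean ratio was thus 4.09 higher on the log2 scale in NFKB+ cells, with no overlap between sorts (exact two-sided permutation test, p = 0.1). It was 1 of 9 such ratios computed between junction genes of 1 type with opposite directions. Each of the 9 exact permutation tests gave p = 0.1, also after adjustment over the 9. Each ratio pairs a gene selected as higher with one selected as lower in these libraries, so its direction and the lack of overlap follow from that choice, and the values are a description.

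**Figure D2:**
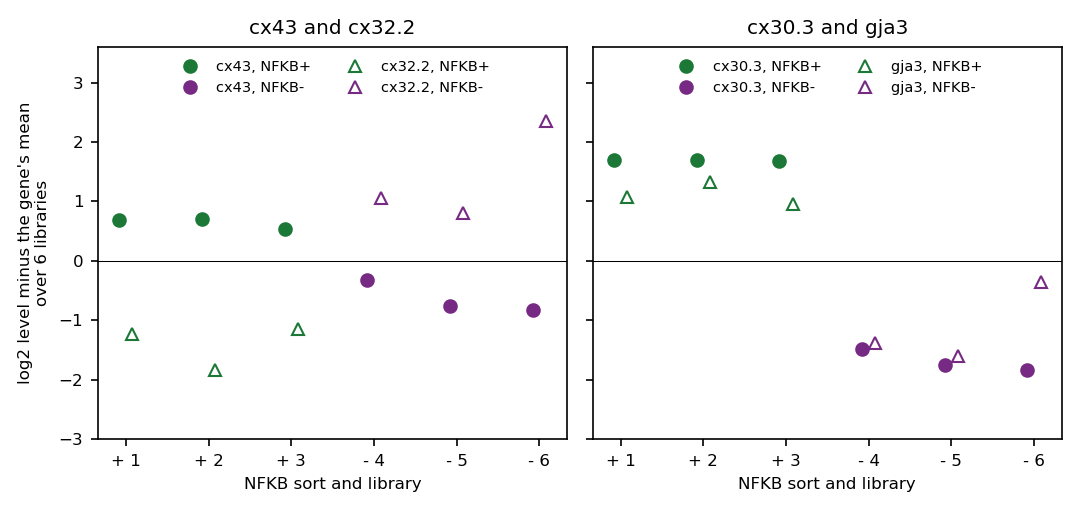
Log2 level minus the gene's mean over the 6 libraries, for the adjacent genes cx43 (filled circles) and cx32.2 (open triangles) on the left, and cx30.3 (filled circles) and gja3 (open triangles) on the right, with NFKB+ libraries 1 to 3 left of NFKB- libraries 4 to 6. The genes of the first pair lie on opposite sides of the line in every library, and those of the second on the same side.

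Tight junction genes were split, 3 higher and 2 lower, beside 54.5% higher and 45.5% lower among all genes. A split of this kind thus does not set them apart from the table. The scaffold gene tjp2b (Gene 436639), which encodes zonula occludens 2, had log2 levels of 11.42, 11.26 and 11.46 in NFKB+ and 10.15, 9.94 and 9.92 in NFKB- libraries. Its log2 difference was 1.37 ± 0.12 (SE; limma adjusted p = 4.98e-08). The claudin gene cldn11b (Gene 81592), a relative of the claudin of myelin and Sertoli cell junctions in mammals, had 11.07, 11.07 and 11.06 in NFKB+ and 9.67, 9.59 and 9.34 in NFKB- libraries. That made it 2.90-fold higher in NFKB+ cells, with an SD of 0.011 among the NFKB+ libraries and 0.17 among the NFKB- libraries.

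The claudin gene cldng (Gene 81586) went the other way. It had log2 levels of 9.70, 10.11 and 9.82 in NFKB+ libraries, against 11.70, 11.95 and 12.21 in NFKB- libraries, and every NFKB- value was more than 1 unit above the highest NFKB+ value. The log2 difference was -2.08 ± 0.15 (SE; limma adjusted p = 4.33e-09), or 4.22-fold lower in NFKB+. With 798 to 4337 reads in each library, it was the only well-covered junction gene on the lower side. The claudin gene cldnk (Gene 445070), a marker of myelinating glia in zebrafish, had 17, 32 and 52 reads in NFKB+ and 86, 112 and 174 in NFKB- libraries. Its log2 difference was -2.11 ± 0.41 (SE; limma adjusted p = 1.58e-04). The log2 ratio of cldn11b to cldng was 1.19 ± 0.21 in NFKB+ and -2.42 ± 0.42 in NFKB- libraries (SD, n = 3), a difference of 3.61.

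Beside these 3 lower genes, the erythroid and myeloid markers were also lower, with median log2 differences of -2.71 and -3.17. The summed normalized reads of the 23 erythroid markers ranged from 768515 to 929711 in NFKB+ and from 5348466 to 7406745 in NFKB- libraries. For the 21 myeloid markers the range was 20984 to 25976 in NFKB+ and 187471 to 232540 in NFKB- libraries. NFKB- library 6 had the highest value among the NFKB- libraries for cldng, cldnk and cx32.2, as for 22 of 23 erythroid and 16 of 21 myeloid markers. The share among all lower genes was not counted. Among the NFKB+ libraries, library 1 was highest for 17 of 21 myeloid and 1 of 23 erythroid markers. It was the lowest of them for cldng and cldnk, while library 2 was the lowest for cx32.2. The part of blood cell transcripts in the 3 differences was not tested.

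The claudin gene cldne (Gene 81584), expressed in the outer epithelium of the zebrafish embryo, was 4.06-fold higher in NFKB+ cells (log2 difference 2.02 ± 0.28 SE; limma adjusted p = 4.86e-06). Its log2 levels were 10.68, 9.45 and 9.58 in NFKB+ libraries, against 8.09, 7.52 and 8.03 in NFKB- libraries. NFKB+ library 1 stood more than 1 unit above the other NFKB+ libraries, and NFKB- library 5 was the lowest of all. Besides cldne, 10 of 37 listed epidermis and periderm markers were analysed, and 9 of them were higher in the NFKB+ sort (median log2 difference 1.59). The actin-binding profilin gene pfn1 was lower, at -1.34. It carried most of the list's summed level, which was 38234 to 47711 normalized reads in NFKB+ and 85947 to 100687 in NFKB- libraries.

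Summed over the 9 higher markers, chosen for their direction, the level was 8350, 5060 and 9638 normalized reads in NFKB+ and 3574, 2253 and 2590 in NFKB- libraries. NFKB+ library 2 was the lowest NFKB+ library for 8 of these 9 and for cldne, and NFKB- library 5 the lowest NFKB- library for 7 of the 9 and for cldne. The shares with these orders among all higher genes were not counted. In NFKB+ library 3 the 9 markers summed highest, and the log2 level of cldne was 9.58 there and 9.45 in library 2. The lectin gene itln3, 5.18-fold higher, had the largest difference of the list, ahead of cldne. The part of epithelial transcripts in the cldne difference was not tested.

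**Figure D3:**
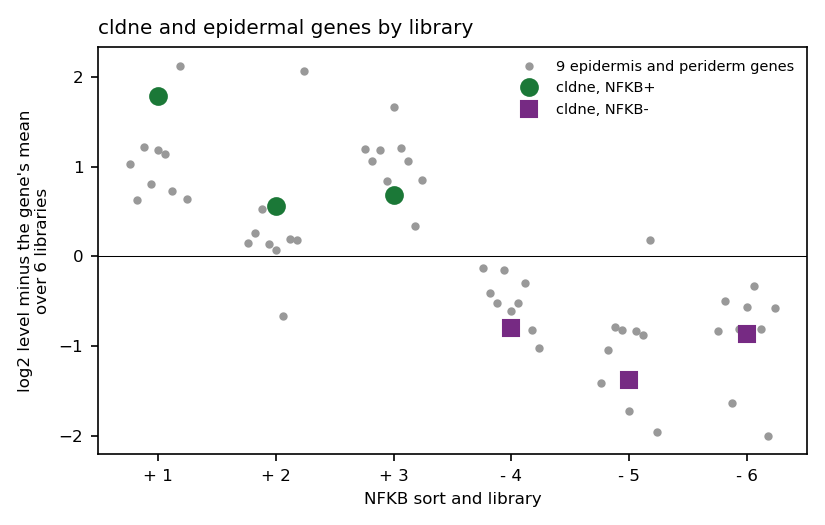
Log2 level minus the gene's mean over the 6 libraries for cldne (large symbols) and 9 epidermis and periderm markers that were higher in NFKB+ cells (grey points, 1 per marker), with NFKB+ libraries 1 to 3 left of NFKB- libraries 4 to 6. All 3 NFKB+ values of cldne lie above the line and all 3 NFKB- values below it, and most markers dip in NFKB+ library 2 and in NFKB- library 5.

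The 3 immunoglobulin receptors of endothelial contacts were higher in NFKB+ cells. The gene jam3b (Gene 569217) encodes a junctional adhesion molecule that zebrafish also use in myoblast fusion. Its log2 levels were 13.21, 13.30 and 13.34 in NFKB+ libraries, against 11.40, 11.24 and 11.22 in NFKB- libraries. The log2 difference was 2.00 ± 0.10 (SE; limma adjusted p = 1.72e-10). The endothelial cell adhesion molecule gene esama (Gene 799432) had 13.99, 14.07 and 14.00 in NFKB+ and 12.61, 12.41 and 12.30 in NFKB- libraries, 2.99-fold higher. The gene pecam1 (Gene 569386, pecam1a in RefSeq), whose product sits at endothelial borders, had 13.97, 13.96 and 13.89 in NFKB+ and 13.08, 12.76 and 12.76 in NFKB- libraries. At 2.11-fold it had the smallest difference of the 3 receptors and lay close to the limit of the selection, at a log2 fold change of 1.06 in the authors' deposited table. With median-ratio scaling its log2 difference was 0.20 and its call ended (limma adjusted p = 0.0571).

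Of the cadherins, cdh5 (Gene 445471) had log2 levels of 15.56, 15.61 and 15.54 in NFKB+ libraries, against 14.20, 13.95 and 13.84 in NFKB- libraries. It was 2.97-fold higher, with a log2 difference of 1.57 ± 0.11 (SE; limma adjusted p = 4.90e-09). The cadherin gene cdh6 (Gene 541393), known from the developing kidney, had 12.13, 12.02 and 12.19 in NFKB+ and 10.68, 10.22 and 9.90 in NFKB- libraries, a log2 difference of 1.85 ± 0.16 (SE; limma adjusted p = 3.26e-08). Among the 4 pronephros markers analysed, of 19 listed, 3 were lower and 1 was higher in NFKB+ cells, with slc20a1a and osr1 furthest at log2 differences of -2.46 and -2.10. The higher one, the sodium pump subunit gene atp1b1a, carried nearly all of the list's summed level, which was 42272 to 48360 normalized reads in NFKB+ and 19859 to 23345 in NFKB- libraries. Their part in the cdh6 difference was not tested.

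The alpha-catenin gene ctnna1 (Gene 30741), which links cadherins to actin, was 2.40-fold higher, at 13.26, 13.38 and 13.22 in NFKB+ and 12.23, 12.04 and 11.81 in NFKB- libraries. Its relative ctnnal1 (Gene 100034581), alpha-catulin, was 2.06-fold higher, the smallest difference of the 30 genes. The plakophilin gene pkp2 (Gene 568060), of the desmosome plaque, had 10.21, 10.24 and 10.34 in NFKB+ and 9.27, 8.77 and 9.20 in NFKB- libraries, 2.27-fold higher. With median-ratio scaling the log2 difference was 0.16 for ctnnal1 and 0.30 for pkp2, and neither passed (limma adjusted p = 0.388 and 0.0878).

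All 13 protocadherin genes analysed, beside 64 annotated, were higher in NFKB+ cells, as were 54.5% of all genes. Each of the 13 was selected as changed, and 12 of them may share reads. The best measured was pcdh17 (Gene 561336), a protocadherin outside the clusters. Its log2 levels were 10.95, 11.17 and 10.98 in NFKB+ libraries, against 9.02, 8.55 and 8.21 in NFKB- libraries. The difference was 2.44 ± 0.19 (SE), 5.44-fold, the second largest excess of the junction genes with more than 100 reads in every library (limma adjusted p = 7.93e-09).

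The other 12 belong to the clustered protocadherins, in which many variable first exons are joined to shared constant exons. They comprise 2 alpha and 8 gamma genes of cluster 1 and 2 genes of cluster 2. In the RefSeq annotation 7 of the gamma genes end at the same base, as do both alpha genes. The genes pcdh1g9 and pcdh2ab10 share no annotated end with another of the 12, and pcdh2g10 was not found there by gene ID. Reads from shared exons cannot be assigned to 1 gene, so the 12 values may not be independent. Each of the 12 genes had 32 to 603 reads in NFKB+ libraries and 2 to 127 in NFKB- libraries. Summed over the 12, reads came to 2003, 1875 and 3071 in NFKB+ and 503, 522 and 363 in NFKB- libraries. In normalized reads the sums were 2079, 2248 and 1970 in NFKB+ and 568, 500.1 and 396 in NFKB- libraries, a 4.30-fold ratio of means. Each of the 12 genes was selected as higher in these libraries, so the direction of the sum follows from that choice.

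Single clustered genes differed by 2.56- to 6.45-fold, with standard errors of 0.26 to 0.66 on the log2 scale, and their order among themselves is not resolved at this depth. For pcdh1g2 (Gene 553986) the log2 levels were 8.86, 8.47 and 8.60 in NFKB+ libraries, against 6.30, 6.30 and 5.82 in NFKB- libraries, 5.67-fold higher (limma adjusted p = 2.17e-07). At the low end, pcdh1g30 (Gene 554014) had 82, 118 and 156 reads in NFKB+ and 56, 36 and 29 in NFKB- libraries, and on the log2 scale NFKB- library 4 came within 0.42 of the lowest NFKB+ value. With median-ratio scaling pcdh1g30 and pcdh2g10 did not pass (limma adjusted p = 0.209 and 0.0881). The gene pcdh1g1 (Gene 553983) was 4.58-fold higher in NFKB+ cells (limma adjusted p = 1.86e-06). The fold of 6.45 belonged to pcdh1a6 (Gene 497129), with 35, 32 and 68 reads in NFKB+ and 13, 2 and 4 in NFKB- libraries. The log2 difference of pcdh1a6 was 2.69, but 1.75 with a pseudocount of 8 in place of 1, and 3.35 once NFKB- library 4 was left out. For pcdh1a6 the authors' deposited table gives 1.85, so the size of its excess is poorly determined. The neural markers analysed, 5 of 29, were 3 higher and 2 lower, with sox1a at -2.19 and zic2a at 1.58 on the log2 scale, and tubb5 and zic2a carried nearly all of the list's summed level, which was 17491 to 19202 normalized reads in NFKB+ and 6865 to 9840 in NFKB- libraries. The part of neural transcripts was not tested.

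**Figure D4:**
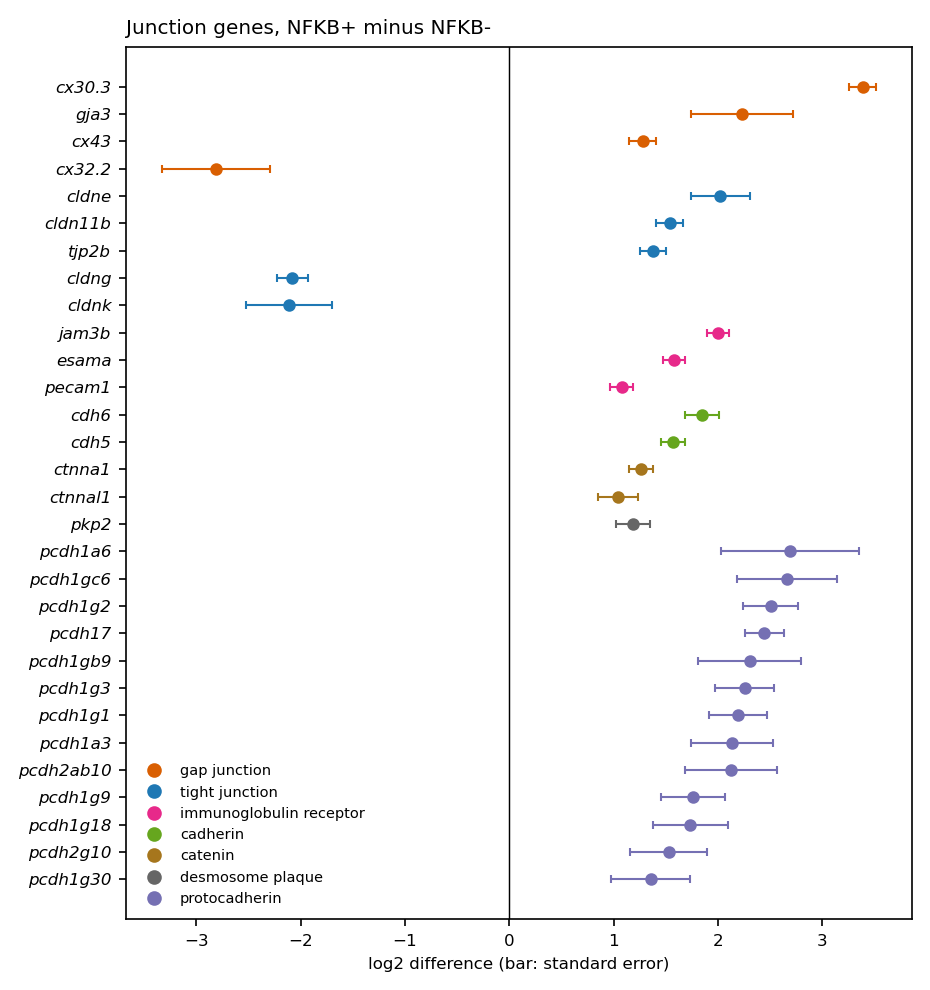
Log2 difference, NFKB+ minus NFKB-, of each junction gene with its standard error from limma over 6 libraries, coloured by junction type. All genes lie right of 0 except cx32.2, cldng and cldnk, and the widest bars belong to genes with few reads.

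NFKB- libraries varied more among themselves than NFKB+ libraries. The SD on the log2 scale was larger in the NFKB- sort for 27 of the 30 junction genes (90.0%), and for 64.9% of all genes. Its median over the 30 was 0.12 in NFKB+ and 0.29 in NFKB-, compared with 0.14 and 0.20 over the table. Of the 30, 27 are higher in NFKB+ and so have the lower levels in NFKB-, against 54.5% of all genes. The share with the larger NFKB- SD among higher genes was not counted, and the part of counting error was not tested. NFKB- library 4 had the highest of the 3 NFKB- values for 21 of the 27 higher genes (77.8%), as for 65.6% of all higher genes. Globins made up 35.9% of reads in library 4, 39.7% in library 5 and 41.7% in library 6. The median log2 level of 23 pan-endothelial genes was 13.78, 13.44 and 13.36 in libraries 4, 5 and 6, and 15.16, 15.16 and 15.17 in NFKB+ libraries 1, 2 and 3.

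Since the endothelial markers were higher in NFKB+ libraries as a group, by 1.64 on the log2 scale, the junction genes were also compared with that median within each library. This comparison depends on library scaling only through the pseudocount of 1, which matters for genes with few reads. It leaves out listed endothelial genes outside the selected table, and the 23 genes are themselves part of that table. They also differ among themselves. Relative to their own median, their differences ran from -0.44 for kdrl to 1.04 for flt4, apart from tal1 at -2.96. Relative to them, 4 junction genes (13.3%) were still higher in NFKB+ cells and 8 (26.7%) were lower, against 5.95% and 58.5% of all genes (limma adjusted p of 0.05). The remaining 18 did not pass, which does not show that they moved like the endothelial genes. Genes selected as lower were at least 2-fold down, while the endothelial median was 1.64 up. Their relative calls as lower thus largely follow from the selection. This holds for 3 of the 8 junction genes, and 45.5% of all genes were on the lower side before the median was subtracted.

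The connexin gene cx30.3 lay below the endothelial median in every library, but had the largest relative excess in NFKB+ cells. Its relative log2 level was -3.03, -3.04 and -3.07 in NFKB+ libraries, against -4.85, -4.77 and -4.77 in NFKB- libraries, a difference of 1.75 ± 0.13 (SE; limma adjusted p = 4.19e-07). For pcdh17 the relative difference was 0.81 ± 0.16 (SE; limma adjusted p = 0.00131), and for pcdh1g2 it was 0.87 ± 0.25 (adjusted p = 0.0108). For jam3b it was 0.36 ± 0.11 (adjusted p = 0.0185). The values of pcdh17, pcdh1g2 and jam3b lie within the range of the endothelial genes themselves, while that of cx30.3 lies above it. The call of pcdh1g2 ended without NFKB+ library 1 (adjusted p = 0.0605), and that of jam3b without NFKB+ library 2 or 3 (0.0737 and 0.0934).

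The junction genes cdh5 and esama had small relative differences between the sorts, of -0.07 ± 0.10 and -0.06 ± 0.10 (SE), and their sorts overlapped. For pecam1 the relative level was -1.19, -1.20 and -1.28 in NFKB+ libraries, against -0.71, -0.68 and -0.59 in NFKB- libraries, a difference of -0.56 ± 0.10 (SE; limma adjusted p = 6.06e-04). The 2.11-fold excess of pecam1 in NFKB+ cells was thus smaller than that of the median of the 23 selected endothelial genes. Among those genes kdrl was itself at -0.44. The genes cx43, ctnna1, ctnnal1 and pkp2 were also relatively lower, by -0.36, -0.38, -0.60 and -0.45, but each of these 4 calls ended without some library. For cx43 this was NFKB+ library 3 (adjusted p = 0.102), for ctnna1 NFKB+ library 1 or 3, for pkp2 any NFKB+ library or NFKB- library 6, and for ctnnal1 any library but NFKB- library 4. The values of cx43 and ctnna1 also lie within the range of the endothelial genes themselves. The genes cx32.2, cldnk and cldng had relative differences of -4.45, -3.75 and -3.72, and kept their calls without any 1 library. Having been selected as lower, they were largely bound to do so.

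**Figure D5:**
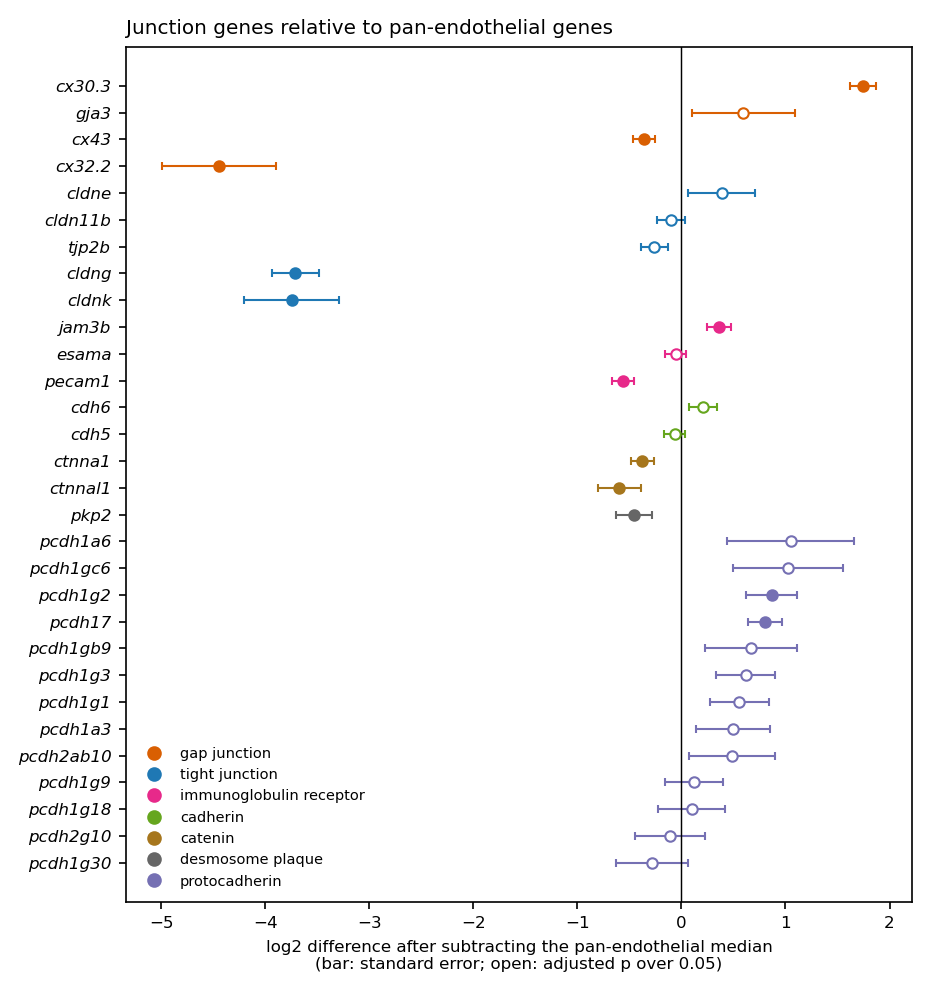
Log2 difference, NFKB+ minus NFKB-, of each junction gene after the median of 23 pan-endothelial genes was subtracted in each library, with its standard error. Filled points passed an adjusted p of 0.05 and open points did not, with cx30.3 furthest to the right at 1.75 and cx32.2, cldnk and cldng between -4.45 and -3.72.

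Beyond the 30 genes, a list of junction scaffolds, polarity proteins and signalling partners was counted. Of its 126 annotated genes 24 were analysed, and 23 of these (95.8%) were higher in NFKB+ cells, beside 54.5% of all genes, with a median log2 difference of 1.35. The sorts did not overlap for any of the 24, as for 99.6% of all genes. The largest excess was that of plekha7a, whose product binds p120 catenin at adherens junctions in mammals, at 5.33-fold. It had log2 levels of 7.55, 7.21 and 7.40 in NFKB+ libraries, against 5.76, 5.46 and 3.70 in NFKB- libraries, with library 6 far below the other NFKB- libraries.

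The polarity gene pard6gb was 3.89-fold higher, at 12.62, 12.78 and 12.81 in NFKB+ and 10.96, 10.85 and 10.51 in NFKB- libraries. The plakin gene evpla was 3.88-fold higher and is also on the epidermis list, as is ppl. The gene ildr1a, which encodes an angulin of tricellular junctions, was 4.20-fold higher, with 8.03, 6.35 and 7.29 in NFKB+ and 4.75, 5.77 and 4.93 in NFKB- libraries. The other angulin genes analysed, ildr2 and lsr, named after their values were seen, were 2.66- and 2.54-fold higher. The only gene of the list on the lower side was ptprja, a receptor phosphatase gene, 4.02-fold lower in NFKB+ cells. Its log2 levels were 6.98, 6.96 and 7.69 in NFKB+ libraries, against 9.29, 9.16 and 9.21 in NFKB- libraries.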

How the data were processed

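RNA was sequenced from 6 sorted samples, 3 per sort. Tools named in the submitters' processing notes are cutadapt, STAR, HTSeq and DESeq2, and the build is danRer10; roles are not given. The labels do not state strandedness, so overlapping antisense genes cannot be separated. Per the file headers, the authors deposited a log2 value per library, their log2 fold change, a signed fold score, p-values and adjusted p-values. Undoing the log2 of the deposited values and dividing by a step found for each library left whole reads (tolerance 0.1 read) for 100% of values under 1000 reads. The values are thus log2(normalized reads + 1). No count test was used for the main result.

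Of 2475 rows, 4 were left out because 2 genes had conflicting repeat rows. Columns were assigned to a sort, not to a labelled replicate. Within-sort library pairs differed by more than sampling noise (chi-square per degree of freedom 24.7 to 113). NFKB+ minus NFKB- was fitted in R 4.3.3 with lmFit and eBayes (mean trend) of limma 3.58.1, no filter and no covariate, with Benjamini-Hochberg adjustment over 2471 genes at 0.05. The step was tested on simulated data. All 30 members are named. Of the regulator list, the 4 largest in each direction were named, of each marker list the 2 largest, and kdrl. The endothelial marker tal1 was named as the only lower one of its list. The members and lists were chosen with earlier results of these data known. The RefSeq assembly differs from danRer10, so its coordinates served only for gene order and for shared ends of protocadherin genes, beside gene names. Alternatives were another pseudocount, a low-value filter, 3 library scalings, no trend, limma-voom on recovered reads and each library left out. Intervals for counting error are not given, and genes under 100 reads are less precise.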

Additional observations from a re-analysis of the deposited data

How the results depend on the processing

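No called junction gene changed direction under any alternative run, which says little of stability because selection used the same libraries. Rescaling to the same total, to the total without globins or by median ratios moved the median log2 difference of the table by 0.49, -0.11 and -0.88. Median ratios ended the calls of ctnnal1, pcdh1g30, pcdh2g10, pecam1 and pkp2. They left 1 higher catenin gene, 0 higher desmosome genes and 14 higher regulator genes. A minimum mean of 50 normalized reads left 0 lower connexin genes, since cx32.2 falls under it. A log2 difference of 2 or more left 12 higher junction genes, and leaving out the clustered protocadherins, chosen after seeing the data, left 15. Without 1 library at a time, 27 genes stayed higher and 3 lower, while the counts relative to the endothelial median ranged from 3 to 6 higher and from 4 to 9 lower. Some relative differences that had not passed changed sign, among them cldne, at 0.39 ± 0.32 (SE) with all libraries and about 0 without NFKB+ library 1. With a pseudocount of 8, pcdh1g18 was at -0.0746 and pcdh1g9 at -0.00885. Leaving out 1 library at a time gave -0.0987 to 0.238 for pcdh1g18, -0.00207 to 0.226 for pcdh1g9, -0.00429 to 0.608 for cldne and -0.194 to 0.00323 for pcdh2g10. None of these was called. The cause of these changes was not tested. Relative to the endothelial median, cdh6 and pcdh1a6 passed as higher without NFKB- library 4, and tjp2b passed as lower (-0.319). As higher, pcdh1g3 passed without library 5 and pcdh1gc6 without library 6. With no mean trend in the fit, pcdh1a3 also passed, at 0.498 (limma adjusted p = 0.0399). limma-voom on recovered reads called the same numbers over the table, 1347 higher and 1124 lower. No paired analysis was possible because library names in the table show the sort, not a labelled replicate. Of the 30 genes, 15 had a library under 100 reads, and their differences are the least precise.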
